A study of Danio rerio with 10 samples.

Results

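The mitochondrial ribosomal proteins were followed as a group of 74 genes, taken as every row of the deposited tables whose gene symbol begins with *mrpl* or *mrps* and a digit. By name, 46 belong to the large and 28 to the small subunit of the mitochondrial ribosome (mitoribosome), and the same 74 Ensembl identifiers stood among the 22202 genes listed for caudal fins and the 23511 listed for ventricles. The mitoribosome sits in the mitochondrial matrix and translates the few messenger RNAs that the mitochondrial genome encodes, whose products are core subunits of the oxidative phosphorylation complexes. Its RNAs come from the mitochondrial genome, whereas all of its proteins are encoded in the nucleus, made in the cytosol and imported. Part of these proteins have counterparts in bacterial ribosomes, and the rest are found only in mitochondria, where they replace or surround shortened ribosomal RNA. The heart is rich in mitochondria, and proliferating cells must build new ones.

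The RNA-seq compared adult zebrafish homozygous for a CRISPR-Cas9 allele of *il11ra* (*il11ra* mutants) with wild-type siblings. *il11ra* encodes the receptor for the cytokine interleukin-11. Cardiac ventricles were collected whole 96 hours post cryoinjury (hpci) with 2 libraries for each genotype and 2 animals pooled in each. Tissue of the caudal fin next to the amputation plane was collected 24 hours post amputation (hpa), with 3 libraries for each genotype and 1 animal in each. All groups were injured and there was no uninjured group, so a genotype difference here is one between injured tissues. No other mutant allele of *il11ra* was profiled. Both tissues are mixtures of cell types, in which fewer cells of a type and less RNA per cell cannot be told apart. The values are normalized counts, read here as read counts divided by a size factor per library and rounded. The tables of the 2 tissues were normalized separately. Whether values of the fin table were also filtered or reduced is not known. *il11ra* itself stood at 65, 80 and 57 normalized counts in fins of wild types against 3, 6 and 7 in those of mutants, and at 107 and 189 against 38 and 23 in ventricles, without overlap in either tissue. Sums per library were 3768621 to 3986121 in fins and 10968602 to 13273996 in ventricles, for an estimated 2965864 to 4699029 and 12862399 to 14292521 reads on genes. These estimates cover reads on the listed genes alone, not all reads sequenced, and the fin table lists 0 genes of the mitochondrial chromosome. By them, wild-type replicate 1 and mutant replicate 1 were the shallowest fin libraries of their genotypes. Cardiomyocyte markers summed to 420716 in mutant ventricle replicate 1 and to 692197 to 811985 in the other 3 ventricle libraries, and epidermal markers to 6609 to 9152 in the fin libraries.

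The 74 genes are spread over 22 of the 25 zebrafish chromosomes (GRCz11), with the most, 7, on chromosome 19. *mrps11* (minus strand) and *mrpl46* (plus strand) lie head to head on chromosome 7, 221 bp apart, and *mrpl16* and *mrpl39* follow each other on the plus strand of chromosome 1 with 337 bp between them. Of the 74 genes, 14 overlap another listed gene, in each case on the opposite strand. The libraries were stranded, but whether reads were counted by strand is not given in the sources used here, so reads of these 14 and of their partners may not be separated. Of the 14, 2 (*mrpl9* and *mrpl16*) are among the genes that passed the threshold in fins.

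All 74 genes passed the filter of a mean of at least 10 normalized counts in both tissues. Their mean values ran from 48.0 to 257 in fins and from 45.5 to 850 in ventricles. Values were not divided by gene length, so they are not compared here between genes. Wild-type ventricle values were higher than wild-type fin values for 72 of 74 genes, on scales set separately for each table. The median ratio was 1.65, with a range from 0.698 to 3.84. As a share of all normalized counts of a library, the order was the reverse. The 74 genes made up 0.299% to 0.324% in wild-type fins and 0.163% to 0.168% in wild-type ventricles. The totals behind these shares are unlike. The fin table lists 0 genes of the mitochondrial chromosome and stops at 6719. The ventricle totals include 1060191 to 1666047 counts of mitochondrial genes and single values up to 600938. Neither the ratios nor the shares are therefore read as a difference in expression between the tissues. *mrpl2*, which encodes a protein near the catalytic centre of the large subunit, stood highest in that ratio, at 217 ± 5.29 (SD, n = 3) in fins of wild types and 832 ± 88.4 (SD, n = 2) in their ventricles. *mrpl1* stood lowest, with 145 ± 19.7 (SD, n = 3) and 102 ± 7.78 (SD, n = 2), and *mrpl58*, a peptidyl-tRNA hydrolase built into the large subunit in human, was the other gene below 1.

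In caudal fins, the summed level of the mitochondrial ribosomal protein genes was lower in mutants, and single genes had log2 fold changes from -0.63 to 0.22. Summed over the 74 genes, the wild-type libraries had 12630, 11737 and 11336 normalized counts and the mutant libraries 10011, 10291 and 10387. The genotypes did not overlap, and the mutant mean was 14.0% below the wild-type mean. The large subunit fell from 7313 ± 402 to 6292 ± 79.2 and the small subunit from 4588 ± 261 to 3937 ± 127 (mean ± SD, n = 3 per genotype), by 14.0% and 14.2%. For such a sum, the exact permutation test (two-sided) cannot go below p = 0.1 with 3 libraries against 3. The fitted log2 fold change was negative for 67 of 74 genes, against 51.1% of all 16741 genes tested, and its median was -0.22, against -0.01 for all genes. Every mutant library was lower than every wild-type library for 45 of the 74 genes (60.8%) and higher for 2 (*mrps2* and *mrpl2*), where 26.8% and 26.0% of all genes tested separated in these directions. These genes share their 6 libraries, so their directions are not independent of each other.

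**Figure D1:**
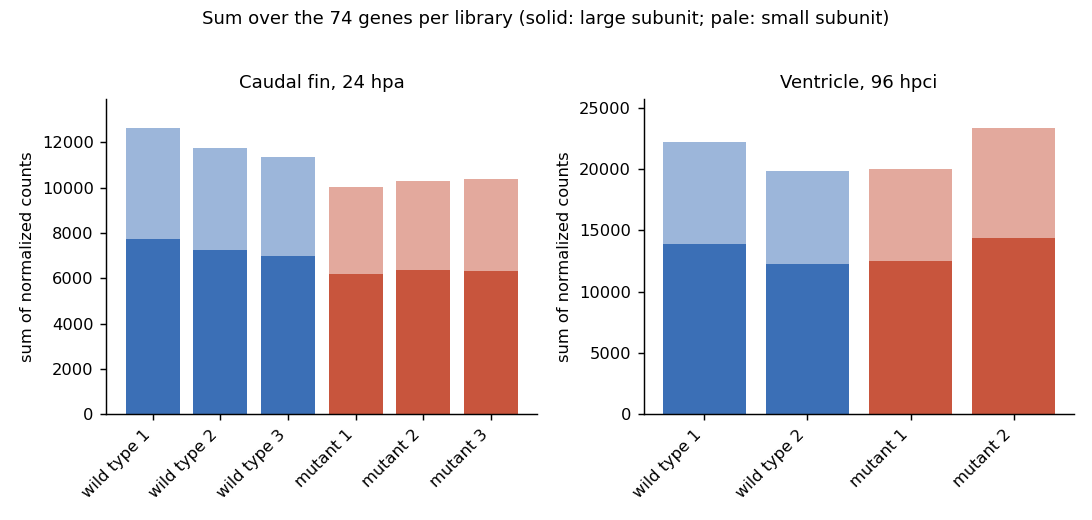
Sum of the normalized counts of the 74 genes (vertical axis) in each library, with 1 bar per library; the solid part is the large and the pale part the small subunit, wild type in blue and *il11ra* mutants in red. The 3 mutant fins lie between 10011 and 10387, all below the wild-type fins, whereas the sums of the ventricle libraries overlap.

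Single genes passed the threshold no more often than other genes did. With limma and Benjamini-Hochberg adjustment over all genes tested, 13 of 74 genes (17.6%) were lower in mutant fins at an adjusted p under 0.05, where 17.0% of all genes tested were lower, and 0 were higher, where 19.6% were higher. At an unadjusted p under 0.05, 22 genes (29.7%) were lower and 1, *mrpl2*, was higher (limma), where 23.5% and 24.5% of all genes tested were. By subunit, 10 of 46 large and 3 of 28 small subunit genes passed, with median log2 fold changes of -0.23 and -0.21. By origin, 9 of 44 genes with a bacterial counterpart and 4 of 29 of those found only in mitochondria passed, with medians of -0.21 and -0.25. Neither subunit and neither origin class stood out by these medians, which were not tested against each other. The structural parts named below, of 2 to 6 genes each, had medians from -0.33 (messenger RNA channel) to -0.26 (tunnel exit), against -0.22 for all 74. These were not tested against each other either.

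**Figure D2:**
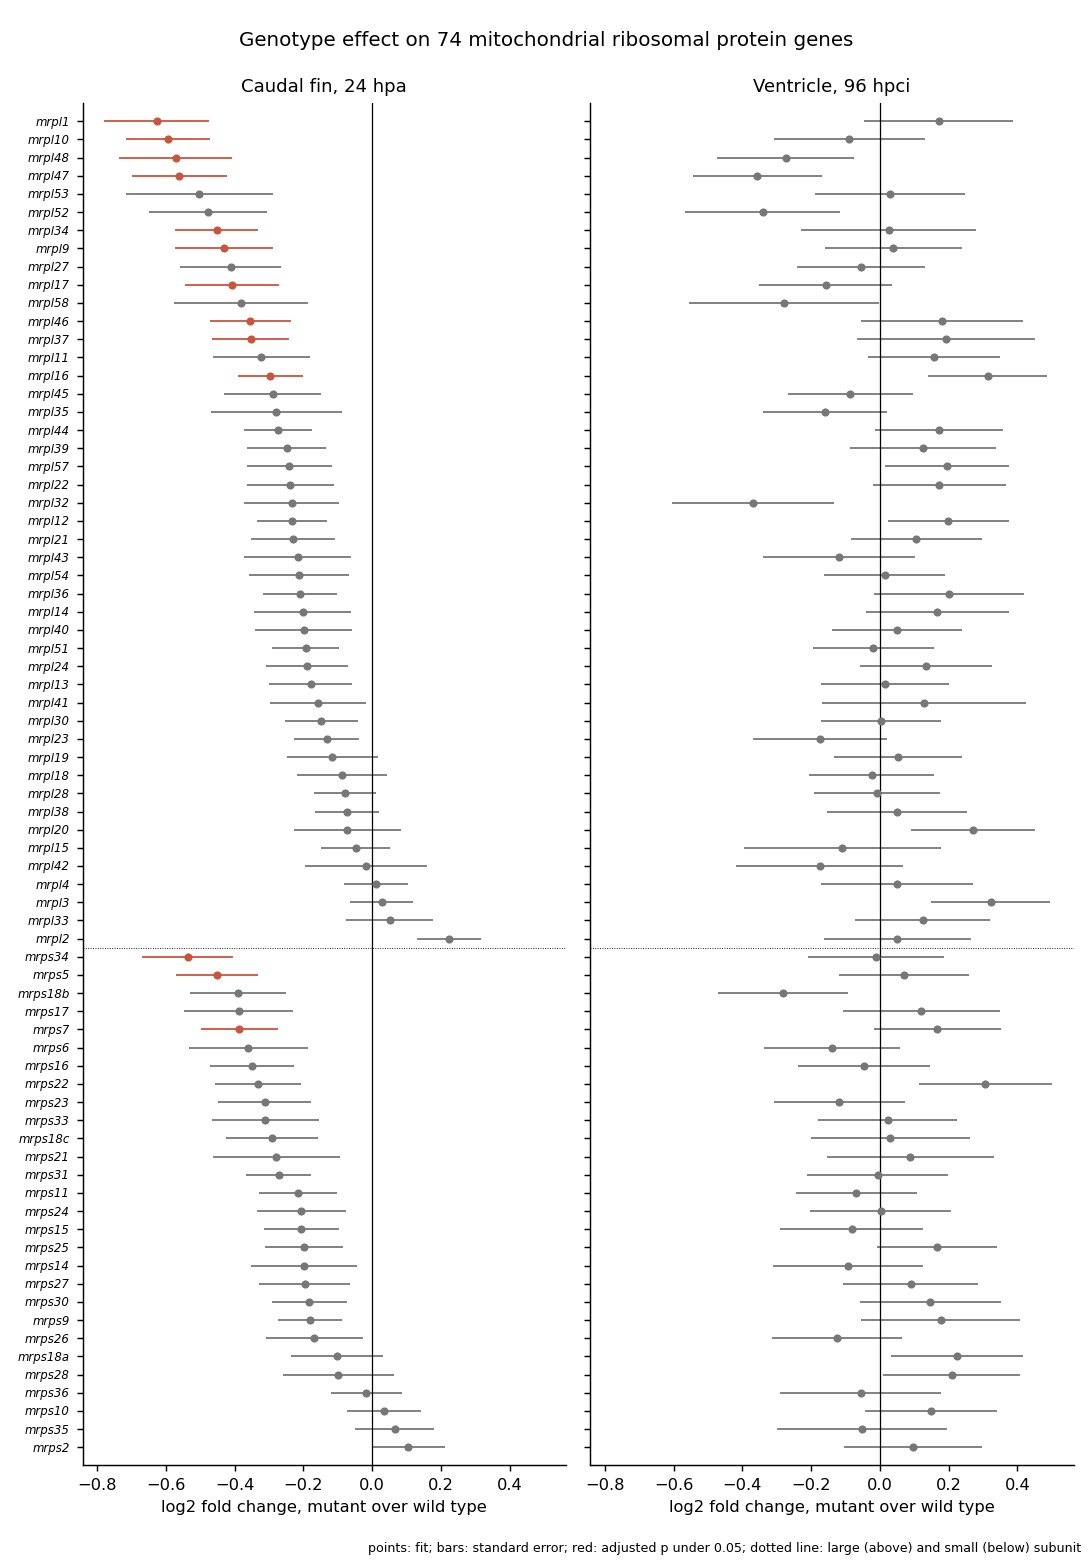
Log2 fold change of mutants over wild type (horizontal axis) for each of the 74 genes in caudal fins (left) and ventricles (right), large subunit above and small subunit below the dotted line; points are the fitted values, bars the standard errors, and red marks an adjusted p-value under 0.05. In fins 67 points lie below 0 and 13 are red, and in ventricles 29 lie below 0 and none is red.

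Of the 10 large subunit genes that passed, *mrpl1* and *mrpl10* had the largest falls. Their products belong to the stalks, the mobile arms at either side of the subunit. *mrpl1* (chromosome 5, 38825225 to 38834564, plus strand) encodes the protein of the L1 stalk, which guides spent tRNA out of the ribosome. It had 168, 136 and 132 normalized counts in wild-type and 82, 98 and 101 in mutant fins. The genotypes were well apart, and the log2 fold change of *mrpl1* was -0.63 (standard error 0.15, limma adjusted p = 0.0158). *mrpl10* (chromosome 12, 28796622 to 28799642, minus strand) encodes the base of the other stalk, on which the copies of *mrpl12*'s product sit and which calls in translation factors. It had 159, 160 and 147 normalized counts in wild-type and 97, 99 and 112 in mutant fins. That fall of 0.59 (standard error 0.12, limma adjusted p = 0.00825) had the smallest p-value of the 74 genes. *mrpl10* passed the threshold under every alternative tried, including each library left out in turn, and it was the single gene of the 74 to do so. The partners of *mrpl10* in that stalk did not pass, with *mrpl11* at a log2 fold change of -0.32 (standard error 0.14, limma adjusted p = 0.105) and overlapping values. *mrpl12* was at -0.23 (standard error 0.10, limma adjusted p = 0.108), with 276, 253 and 234 against 219, 203 and 226 normalized counts.

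Around the exit of the tunnel through which new peptides leave, *mrpl47* and *mrpl17* fell. *mrpl47* (chromosome 6, 29397554 to 29402578, minus strand) encodes the relative of bacterial L29 and had 176, 141 and 137 normalized counts in wild-type and 105, 100 and 100 in mutant fins. Wild-type replicate 1 was the highest, and the mutant libraries lay close together. The fall was 0.56 on the log2 scale (standard error 0.14, limma adjusted p = 0.0163). *mrpl17* had 176, 144 and 137 against 108, 118 and 116 normalized counts and fell by 0.41 (standard error 0.14, limma adjusted p = 0.0469). The other 4 genes of the tunnel exit, *mrpl22*, *mrpl23*, *mrpl24* and the inner-membrane anchor *mrpl45*, had log2 fold changes from -0.29 to -0.13, and none passed. With 2 of 6 genes passed, the count is too small to set the tunnel exit apart from the 17.0% of all genes lower.

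In the central protuberance, the crown of the large subunit that touches the small one, 2 of the 6 genes assigned to it here passed. That assignment may not hold every gene of this structure. Of all genes tested, 17.0% were lower, and 2 of 6 is too small a count to set this structure apart. *mrpl48* had 126, 107 and 101 normalized counts in wild-type and 75, 84 and 65 in mutant fins and fell by 0.57 (standard error 0.16, limma adjusted p = 0.0285). *mrpl46*, the head-to-head neighbour of *mrps11*, had 169, 150 and 144 against 121, 124 and 116 and fell by 0.35 (standard error 0.12, limma adjusted p = 0.0478). Both are absent from bacterial ribosomes. *mrps11*, on the other side of the shared 221 bp, was at -0.21 (standard error 0.11, limma adjusted p = 0.171) with values that did not overlap. *mrpl27*, *mrpl40*, *mrpl18* and *mrpl38*, also of the protuberance, had log2 fold changes of -0.41, -0.20, -0.09 and -0.07 and did not pass.

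A further 4 large subunit genes passed. *mrpl34*, which encodes a small protein bound to ribosomal RNA, had 146, 135 and 136 normalized counts in wild-type and 97, 107 and 100 in mutant fins (log2 fold change -0.45, standard error 0.12, limma adjusted p = 0.0214). *mrpl9*, a relative of bacterial L9, had 137, 147 and 117 against 90, 101 and 105 (-0.43, standard error 0.14, limma adjusted p = 0.0453). Neither pair of genotypes overlapped. *mrpl37*, found only in mitochondria, had 283, 262 and 259 against 183, 229 and 219 (-0.35, standard error 0.11, limma adjusted p = 0.0406). *mrpl16* (chromosome 1, 524388 to 532429, plus strand), whose bacterial relative lies beside the tRNA entry site of the catalytic centre, had 274, 289 and 287 against 211, 239 and 243 (-0.30, standard error 0.10, limma adjusted p = 0.0420). *mrpl16* had the smallest of the 13 falls.

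**Figure D3:**
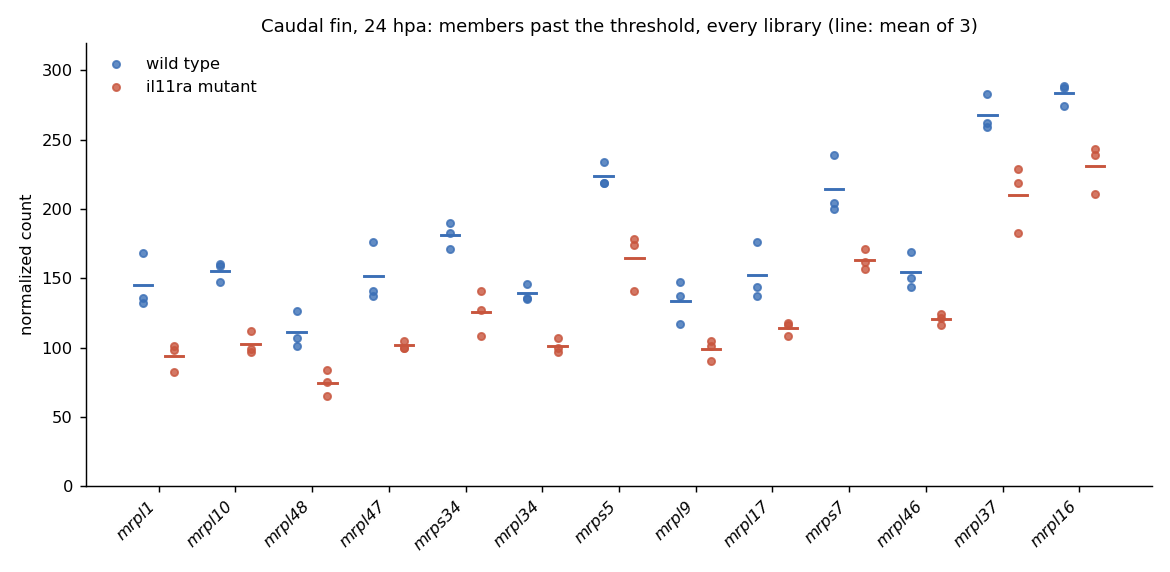
Normalized counts (vertical axis, from 0) of the 13 genes that passed the threshold in caudal fins, ordered by log2 fold change; each point is 1 library (3 wild type in blue, 3 mutant in red) and each short line the mean of 3. The mutant points lie below the wild-type points for each of the 13 genes, from *mrpl1* at 82 to 101 against 132 to 168 to *mrpl16* at 211 to 243 against 274 to 289.

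In the small subunit, which binds the messenger RNA, *mrps34*, *mrps5* and *mrps7* fell. *mrps34* (chromosome 3, 16003122 to 16010968, minus strand), found only in mitochondria and needed in mouse and human for a stable small subunit, had 171, 190 and 183 normalized counts in wild-type and 108, 127 and 141 in mutant fins. Its fall was 0.54 on the log2 scale (standard error 0.13, limma adjusted p = 0.0162), with mutant replicate 1 the lowest. *mrps5*, whose bacterial relative lines the channel by which messenger RNA enters, had 234, 219 and 219 against 174, 141 and 178 (log2 fold change -0.45, standard error 0.12, limma adjusted p = 0.0217). *mrps7*, which in bacteria starts the assembly of the head of the small subunit, had 239, 200 and 204 against 157, 162 and 171 (-0.39, standard error 0.11, limma adjusted p = 0.0290). The genotypes did not overlap for any of these genes. *mrps24*, also of the messenger RNA channel, was at -0.21 and did not pass (standard error 0.13, limma adjusted p = 0.240).

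The 3 relatives of bacterial S18 allow a comparison within a family. In human mitoribosomes *mrps18b* and *mrps18c* sit in the small subunit, whereas *mrps18a*, like *mrps30*, carries a small subunit name but sits in the large one. *mrps18b* had 213, 164 and 172 normalized counts in wild-type and 133, 155 and 129 in mutant fins (log2 fold change -0.39, standard error 0.14, limma adjusted p = 0.0604). *mrps18c* had 133, 112 and 122 against 94, 107 and 98 (-0.29, standard error 0.13, limma adjusted p = 0.120). *mrps18a* overlapped between genotypes, with 238, 207 and 185 against 172, 200 and 214 (-0.10, standard error 0.13, limma adjusted p = 0.571). None of the 3 passed, and the differences between them were not tested. *mrps30* was at -0.18 and overlapped as well.

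The 7 genes with a positive log2 fold change in fins were *mrpl2*, *mrps2*, *mrps35*, *mrpl33*, *mrps10*, *mrpl3* and *mrpl4*. *mrpl2* had 221, 219 and 211 normalized counts in wild-type and 272, 245 and 245 in mutant fins (log2 fold change 0.22, standard error 0.09, limma adjusted p = 0.0904). Its mutant libraries were all above its wild-type ones, and it did not pass. *mrps2* had 176, 173 and 152 against 183, 177 and 178 (0.11, standard error 0.11, limma adjusted p = 0.462). The other 5 lay between 0.01 and 0.07 and overlapped between genotypes. *mrps36*, whose human product was later placed in the 2-oxoglutarate dehydrogenase complex rather than in the ribosome, was at -0.02.

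The count of 13 depended on the libraries and the model, and the direction less so. Without wild-type replicates 1, 2 and 3 in turn, 3, 4 and 5 genes passed, and without mutant replicates 1, 2 and 3 in turn, 7, 7 and 5. With the 2 deeper libraries of each genotype alone, 2 passed. Over those fits 62 to 69 genes had a negative log2 fold change, and the median stayed between -0.26 and -0.16. Wild-type replicate 1 had the highest value of the 6 libraries for 51 of 74 genes and mutant replicate 1 the lowest for 36, and both are the shallowest of their genotype. The sums of the other wild-type libraries, 11737 and 11336, also lay above those of the other mutant libraries, 10291 and 10387.

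Other genes moved with genotype in the same libraries. Of 5 proliferation markers, 4 were lower in mutant fins (*mki67*, *ccnb1*, *top2a* and *mcm2*), and the 5 summed to 4518, 4275 and 4259 normalized counts in wild-type and 1728, 3006 and 3213 in mutant fins. Mutant replicate 1 was lowest in this sum as in that of the 74 genes. The neutrophil marker *mpx* and 2 of 3 macrophage markers were higher, with list sums of 214 to 323 against 996 to 1420 for neutrophils and 794 to 1089 against 1362 to 1449 for macrophages. The other macrophage marker, *csf1ra*, pointed the other way without passing, with 298, 454 and 243 against 145, 266 and 151 (log2 fold change -0.83, standard error 0.28, limma adjusted p = 0.0520). Of 3 osteoblast markers tested, *sp7* and *runx2b* were lower, and the list sums overlapped (911 to 1092 against 595 to 954). Both of the 2 cardiomyocyte markers tested had a negative log2 fold change. *tnnt2a* (-4.22) was lower, and *ttn.2* (-0.74) overlapped between genotypes and did not pass. The cardiomyocyte list sums were small and did not overlap, at 64 to 161 against 14 to 34. The remaining lists did not move as a whole. Of 2 skeletal muscle markers *ckma* was higher while *tnnt3b* had a log2 fold change of -0.59. Of 4 endothelial markers *pecam1* was higher while *kdrl* was at -0.17, and of 5 epidermal markers *epcam* was higher while *krt4* was at -0.11. In the epicardial and erythrocyte lists 0 genes passed (limma, adjusted p under 0.05, and 0 also at an unadjusted p under 0.05). Which fin cells carried the genes of the cardiomyocyte list was not examined, and their fall is not read as a loss of cardiomyocytes. The part of cell populations in the values of the 74 genes was not tested.

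Of 86 cytosolic ribosomal protein genes tested in fins (symbols beginning with *rpl* or *rps* and a digit), 73 had a positive log2 fold change, with a median of 0.09, and 3 were lower and 1 higher at the threshold. Their sums overlapped between genotypes and rose with the estimated worth of 1 read across the fin libraries. They ran from 29637 at a worth of 0.802 (wild-type replicate 2) to 38282 at 1.34 (mutant replicate 1). This positive shift is therefore not read as a genotype effect, and the part of depth in it was not tested. Nuclear genes of oxidative phosphorylation lay on both sides of 0, with 52 negative and 59 positive of 111, a median of 0.00 and 4 lower and 7 higher. These medians stand side by side as a description, without a test between the groups. The median level of the cytosolic ribosomal protein genes was 352 normalized counts in fins and 4667 in ventricles, and that of the 74 genes 143 and 250. The fin table also stops at 6719, and the ventricle table at 600938. Whether high values were reduced in the fin table was not tested, so fold changes of highly expressed genes there are uncertain. Of all 16741 genes tested in fins, 17.0% were lower and 19.6% higher at the threshold, and 51.1% had a negative log2 fold change.

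Other genes of mitochondrial gene expression moved in both directions in fins, most of them down. Of the 5 mitoribosomal proteins without an *mrp* name, all had a negative log2 fold change and 2 passed. *dap3*, a GTP-binding protein of the small subunit, had 299, 265 and 257 normalized counts in wild-type and 182, 206 and 214 in mutant fins (-0.45, standard error 0.11, limma adjusted p = 0.0156), and *aurkaip1*, also of the small subunit, was at -0.33 (limma adjusted p = 0.0376). Of 12 translation factors, 5 were lower and 1 higher. The lower ones were *guf1* (-0.70), *tsfm* (-0.64), which recharges the elongation factor that brings tRNA, *gfm2* (-0.62), which recycles ribosomes, *gfm1* (-0.48), which moves the ribosome along, and the initiation factor *mtif2* (-0.36), all log2 fold changes. The release factor gene *mtrf1* was higher, with 33, 28 and 30 against 62, 54 and 55 normalized counts (0.89, standard error 0.20, limma adjusted p = 0.0115). Of 14 mitochondrial tRNA synthetases, 5 were lower (*aars2*, -0.69; *pars2*, -0.54; *cars2*, -0.49; *vars2*, -0.46; *iars2*, -0.42) and 0 higher, also at an unadjusted p under 0.05 (limma).

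Of 22 genes for mitoribosome assembly and ribosomal RNA modification, 3 were lower and 1 higher in mutant fins. *ybey*, an RNA-processing nuclease by its bacterial relative, had 146, 128 and 127 normalized counts in wild-type and 69, 72 and 85 in mutants (log2 fold change -0.82, standard error 0.15, limma adjusted p = 0.00481). The RNA helicase gene *dhx30* (-0.79) and *rcc1l* (-0.56) were the other lower ones, and *ngrn* was higher (0.54). Of 14 genes of mitochondrial DNA upkeep, transcription and RNA handling, *polg*, the catalytic subunit of the mitochondrial DNA polymerase (-0.86), *lrpprc*, which stabilises mitochondrial messenger RNA (-0.46), and *tfam*, which packages mitochondrial DNA (-0.43), were lower, and 0 were higher, also at an unadjusted p under 0.05 (limma). Of 15 chaperones and proteases, 6 were lower and 1 higher. The largest changes were *clpxa* (0.58), the gene that was higher, its paralogue *clpxb* (-0.44), *hspd1* (-0.44), *lonp1* (-0.42) and *grpel1* (-0.33). Of 11 regulators of mitochondrial biogenesis, the coactivator *pprc1* (-0.66), the nuclear receptor *esrra* (-0.59) and *gabpb2a* (-0.34) were lower and *mycb* (0.64) and the coactivator *ppargc1b* (0.56) higher. The shares called lower, from 13.6% to 41.7% over the 7 lists, stand against 17.0% of all genes tested.

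**Figure D4:**
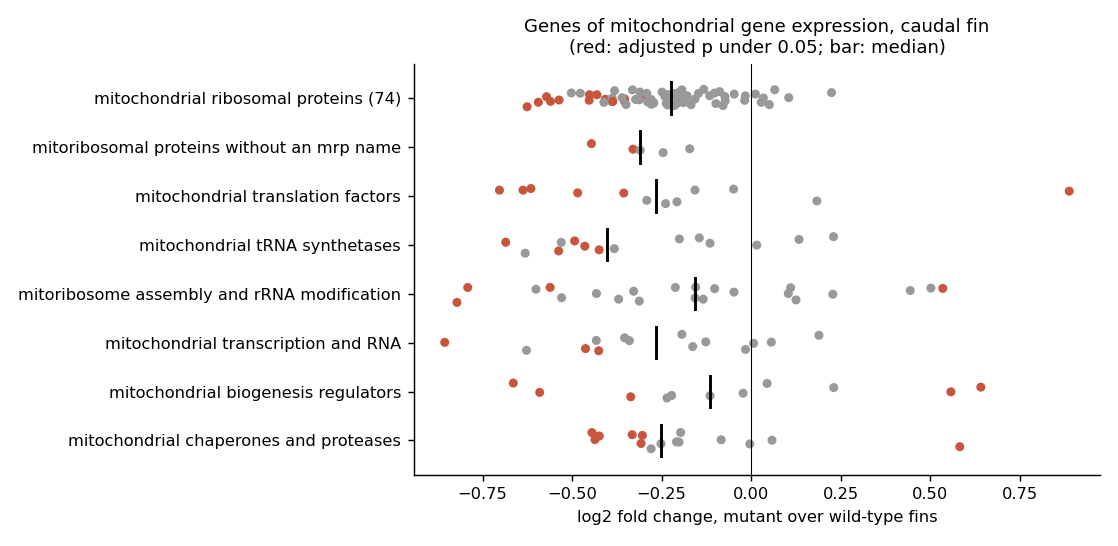
Log2 fold change of mutant over wild-type fins (horizontal axis) for the 74 mitochondrial ribosomal protein genes and 7 lists of related genes (rows); each point is a gene, red where the adjusted p-value is under 0.05, and black bars are medians. The 74 genes lie within -0.63 to 0.22 around a median of -0.22, a narrower band than those of 6 of the 7 related lists, and the red points on the right include *mtrf1*, *clpxa*, *mycb*, *ppargc1b* and *ngrn*.

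By the median, the 74 genes varied less between libraries of one genotype than other genes within their range of means. In fins, the median within-genotype variance was 0.839 times the mean, and 42 of 74 genes lay below 1. Counting error alone gives 0.802 to 1.34 on average, the estimated worth of 1 read in normalized counts. With so few libraries the median of such a ratio lies below its average, so these values do not place the genes under counting error. For the 7575 other genes within the same range of means the median was 2.27, and 22.0% lay below 1. The median coefficient of variation was 8.12% for the 74 genes and 13.8% for those others. In ventricles the ratio was 2.52 for the 74 genes and 3.76 for 11054 others in their range, with coefficients of variation of 9.59% and 14.9%. This did not hold at every level: for means of 400 to 800 in ventricles the medians were 13.79% for members and 12.55% for others. Cytosolic ribosomal protein genes, which stand at higher values, had median coefficients of variation of 11.6% in fins and 6.72% in ventricles. The fin value includes the rise of these genes with the worth of 1 read, given above.

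**Figure D5:**
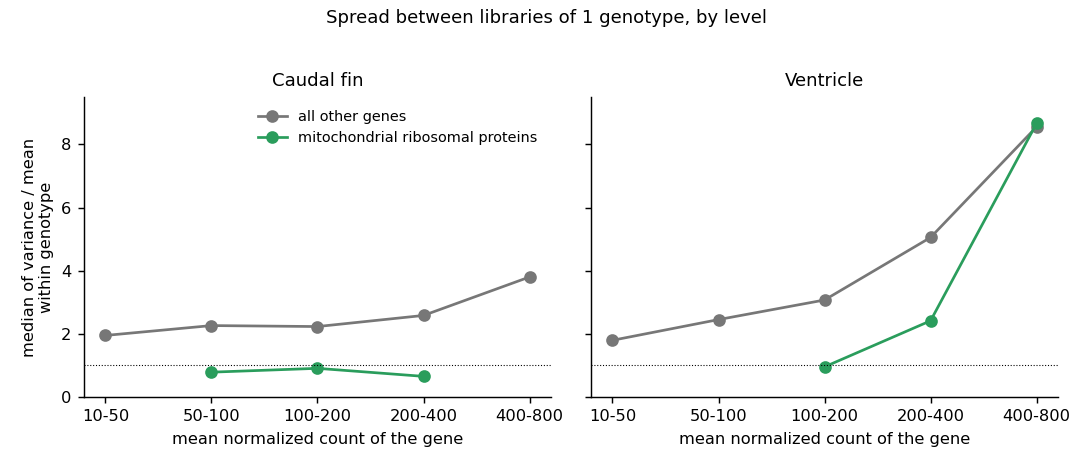
Median ratio of variance to mean within genotype (vertical axis) by the mean normalized count of the gene (horizontal axis, in classes), for the mitochondrial ribosomal protein genes (green) and all other genes (grey), in fins (left) and ventricles (right); classes with under 5 genes are left out and the dotted line marks a ratio of 1. In fins the green points lie between 0.648 and 0.902 and the grey ones between 1.95 and 3.80, and in ventricles the lines meet in the highest class (8.67 and 8.56).

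In ventricles at 96 hpci, the fold changes of the 74 genes lay on both sides of 0. They summed to 22241 and 19891 normalized counts in wild-type libraries against 19978 and 23372 in mutant ones, with wild-type replicate 1 and mutant replicate 2 high and the other libraries low, so that the genotypes overlapped. As a share of all normalized counts of a library, the 74 genes did not overlap, at 0.168% and 0.163% in wild-type and 0.182% and 0.177% in mutant ventricles, a mutant mean 8.75% higher. The 0.182% belongs to mutant replicate 1, whose sum of the 74 genes was near that of wild-type replicate 2. Its total of all normalized counts was the smallest, at 10968602 against 12229373 to 13273996 in the other libraries. The part of the totals in this difference of shares was not tested. Of 74 genes 29 had a negative and 45 a positive log2 fold change, with a median of 0.03, against 0.01 for all 17411 genes tested. By limma with Benjamini-Hochberg adjustment, 0 of 74 genes passed in either direction at an adjusted p under 0.05, as did 0.00% of all genes tested, and at an unadjusted p under 0.05, 0 of 74 were lower and 0 higher, where 3.66% and 3.07% of all genes tested were. The genotypes separated for 11 genes lower and 13 higher in mutants (14.9% and 17.6%), near the 17.1% and 18.2% of all genes tested. The exact permutation test (two-sided) cannot go below p = 0.333 with 2 libraries against 2. Mutant replicate 1 had the low cardiomyocyte marker sum and the highest sum of proliferation markers (6885 against 2629 to 3718). Without it, the median of the 74 genes was 0.15. With each of the other libraries left out, the median lay between -0.07 and 0.09. The proliferation sums did not overlap between genotypes, at 2629 and 3389 in wild-type and 6885 and 3718 in mutant ventricles. All 5 proliferation markers had a positive log2 fold change there, and 0 passed (limma, adjusted p under 0.05). Sums of 3 other lists did not overlap either. Epidermal markers summed to 3178 to 3728 in wild-type and 1934 to 2691 in mutant ventricles, and erythrocyte markers to 71309 to 74784 and 81076 to 96069. Epicardial markers summed to 4627 to 6418 and 2846 to 3894, with 2 genes negative and 2 positive. In these 3 lists 0 genes passed, and the sums of the remaining lists overlapped.

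The 5 genes with the smallest unadjusted p-values on the lower side in ventricles were *mrpl47*, *mrpl32*, *mrpl52*, *mrps18b* and *mrpl48*. *mrpl47*, which also fell in fins, had 349 and 306 normalized counts in wild-type and 240 and 271 in mutant ventricles (log2 fold change -0.36, standard error 0.19, limma adjusted p = 0.795). *mrpl48*, likewise lower in fins, had 152 and 140 against 117 and 124 (-0.27, standard error 0.20, limma adjusted p = 0.860). *mrpl32*, whose product a mitochondrial protease must trim before it joins the ribosome, had 454 and 310 against 277 and 304. All 5 had every mutant library below every wild-type one, and none passed. On the higher side stood *mrpl3*, *mrpl16*, *mrps22*, *mrpl20* and *mrps18a*. *mrpl3* had 363 and 340 against 427 and 452 (0.32, standard error 0.17, limma adjusted p = 0.796), and *mrps22* 170 and 184 against 205 and 234. *mrpl16* had 580 and 557 against 669 and 746 (0.31, standard error 0.17, limma adjusted p = 0.803).

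The lists of related genes had 0 calls in ventricles (limma, adjusted p under 0.05; also 0 at an unadjusted p under 0.05). Cytosolic ribosomal protein genes there had a negative log2 fold change in 81 of 87 cases, with a median of -0.31, and the 13 protein-coding genes of the mitochondrial chromosome in 12 of 13, with a median of -0.19, and 0 of either group passed. The mitochondrial messenger RNAs that the mitoribosome translates summed with the other mitochondrial genes to 1576002 and 1228362 normalized counts in wild-type and 1060191 and 1666047 in mutant ventricles, high in the same 2 libraries in which the 74 genes were high. The fin table lists 0 genes of the mitochondrial chromosome, so this was not analysed in fins.

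The difference of the genotype effect between the tissues was tested with an interaction term over the 14520 genes tested in both. Tissue goes together with the kind of injury, the time after it, the animals per library and a separately normalized table. These cannot be told apart from tissue here. *mrpl16* alone of the 74 passed, lower in fins than in ventricles by a difference of 0.61 on the log2 scale (fin minus ventricle -0.61, standard error 0.15, limma adjusted p = 0.0291), from a fin effect of -0.30 and a ventricle effect of 0.31. That 1 of 74 genes (1.4%) compares with 6.89% of all genes lower in fins, and 0 of 74 with 7.16% higher in fins. At an unadjusted p under 0.05, 11 of the 74 passed (14.9%), where 33.3% of all genes did, and next after *mrpl16* came *mrpl1* (difference -0.80, limma adjusted p = 0.0557) and *mrps22* (-0.64, limma adjusted p = 0.0569). The difference was negative for 66 of 74 genes with a median of -0.28, against -0.07 for all genes. *mrpl16* lost its call without fin wild-type replicate 2 or 3, fin mutant replicate 1 or ventricle wild-type replicate 1 or 2. Side by side, 28 genes were lower in mutants in both tissues, 39 lower in fins and higher in ventricles, 1 the reverse and 6 higher in both. Across the 74 genes the fin and ventricle log2 fold changes were weakly related (Pearson r = 0.25, Spearman rho = 0.19), given as a description since genes of one library are not independent. Among the genes whose genotypes did not overlap in either tissue, 10 of 74 (13.5%) were lower in mutants in both, 8 (10.8%) were lower in fins and higher in ventricles, and 0 were higher in both, where 3.19%, 7.65% and 2.90% of the 14520 genes tested in both tissues did so.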

How the data were processed

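The authors made stranded mRNA libraries, sequenced single-end reads and aligned them to GRCz11. Per the labels, the submitters' notes name FastQC, Trimmomatic 0.39, STAR 2.7.3a, featureCounts 1.6.5 and DESeq2 1.26. What was deposited is a signal for each gene, labelled normalized counts, 1 table per tissue. The values are read here as read counts divided by a size factor per library and rounded. They are not whole reads, so no count model was used. Rounding gaps among low values gave the worth of 1 read, 0.802 to 1.34 normalized counts in fins and 0.836 to 1.03 in ventricles. The fin table stops at 6719 and the ventricle table at 600938, and the cause was not tested.

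The fits used log2(normalized count + 1). Fold changes are on this scale. Genes with a mean of at least 10 per tissue were fitted with limma 3.58.1 (R 4.3.3, mean-variance trend), mutant against wild type, with Benjamini-Hochberg adjustment over all genes and a threshold of 0.05, tested on simulated data. The sources do not say that equal replicate numbers mark a shared clutch or day. Replicates measure the spread between animals in fins and between pools in ventricles. Alternatives were other pseudocounts (0.1, 10), filters (none, 50), TMM and upper-quartile factors, robust moderation, a minimum fold, a replicate block and each library left out.

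Named were all members past the threshold, the 5 smallest p-values per direction in ventricles, members of the stalks, tunnel exit, central protuberance and messenger RNA channel, the S18 family, and up to 5 genes past the threshold per related list. Others were chosen after their values were seen. Members and lists were chosen with earlier results of these data known. Tables and figures were made with Python 3.11.15, pandas 2.3.3, numpy 2.4.6 and matplotlib 3.10.9.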

Additional observations from a re-analysis of the deposited data

Results flagged for a closer look

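The genotype effect on *mrpl16* differed between the fin and ventricle comparisons by an interaction test, with a fin minus ventricle difference of -0.609 on the log2 scale (limma adjusted p = 0.0291). Injury, time after injury, animals per library and the separate tables cannot be told apart from tissue in it. The call was lost in 5 of 10 fits that left out 1 library, with adjusted p up to 0.0774, and with the replicate block (limma adjusted p = 0.0855), and it stayed with the other alternatives tried. The gene fell in mutant fins and had higher values in mutant ventricles, where the change did not pass on its own. *mrpl16* overlaps a listed gene on the opposite strand, whose part in the difference was not tested.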

How the results depend on the processing

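Over 16 alternatives to the fin comparison, 0 genes of the 74 were higher in mutants, and the median log2 fold change stayed negative. The 13 lower genes became 20 with upper-quartile factors, 5 where a log2 fold change of 0.5 or more in size was also required, 6 with a replicate block, 2 with only the 2 deeper libraries of each genotype (chosen after seeing the data), and 3 to 7 with 1 library left out. In ventricles 0 passed under every alternative, including robust moderation and a crossed replicate block added after seeing the data. The ventricle median of 0.03 ranged from -0.066 to 0.155 with 1 library left out, and it was 0.15 without mutant replicate 1. For the difference between tissues, 1 gene became 3 at a minimum mean of 50, 0 with the replicate block, and 0 to 3 with 1 library left out. The cause of these moves was not tested.

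No pairing by replicate number was apparent in fins: same-numbered libraries had correlations of 0.03, 0.09 and -0.08 of their deviations from the genotype means across genes. Libraries with different numbers ranged from -0.11 to 0.09. In ventricles same-numbered libraries had -0.19. With 2 libraries per genotype every ventricle correlation has that same size by construction, so these values cannot decide on pairing. The low counts of the members are a limit in fins, where their means are 48.0 to 257 normalized counts and the median within-genotype variance is 0.839 times the mean.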
